A study of Mus musculus with 2 samples.

Results

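Chromatin is opened, closed and marked by enzymes that write and erase histone modifications, by proteins that read those marks, and by ATP-driven remodellers that move nucleosomes. In blood progenitors, Polycomb proteins, MLL methyltransferases with their partners, and SWI/SNF and CHD remodellers are known for setting which lineage genes can be used. Several of them are required by leukaemia cells that depend on Hoxa9 and Meis1. The 145 genes described here were taken by symbol from a gene table of 23309 rows: every row with a single symbol of the Kdm, Hdac, Sirt, Kat, Setd, Ezh, Cbx, Chd, Smarc, Prmt, Phf, Brd, Asxl or Mll series, plus Eed, Suz12, Bmi1, Ring1, Dot1l, Men1, Ep300 and Crebbp. A few of them do other work than the group's name says, as symbols were matched and not activities: Mllt4 encodes the cell junction protein afadin, Phf5a a splicing factor subunit, Setd3 an actin-modifying enzyme, and Sirt3, Sirt4 and Sirt5 mitochondrial proteins.

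The cells were lineage-depleted bone marrow progenitors from Cebpaf/f;CreER mice, in which Cre carried on CreER can delete loxP-flanked Cebpa once 4-hydroxytamoxifen (4OHT) is given. Both groups carried the retroviruses MIGR1-HA-Hoxa9 and MIGR1-Flag-Meis1 and were grown with IL3. One group received ethanol, the vehicle, and the other 5 nM 4OHT, each for 72 h. Cells without CreER that received 4OHT were not analysed here, so loss of Cebpa and other effects of 4OHT or Cre cannot be told apart. What drives CreER, and the sex and age of the mice, are not given in the sources used here. There was 1 deposited sample per group, which joins 2 replicates, named biological in the series' design. Each gene therefore has 1 value per condition, without an SD. Values are in FPKM, a unit that corrects fragment counts for transcript length and library size and so lets levels be compared between genes.

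Cebpa itself went from 109 to 42.8 FPKM with 4OHT, to 39.2% of the vehicle level. Of 6 progenitor markers all were measured, and their sum was 1004 FPKM with vehicle and 1342 FPKM with 4OHT. Cd34, Flt3 and Kit among them rose. Mpo, at 496 and 603 FPKM, Myb, at 152 and 149 FPKM, and Ptprc, at 42.7 and 41.2 FPKM, were not called by the rule given below. Of the defining late neutrophil, erythroid, B cell and T cell markers, 5 listed for each, none reached 1 FPKM. Among those at 0 in both conditions were Retnlg, Slc4a1, Hbb-bh1, Ms4a1, Pax5, Cd3e, Cd3g and Cd4. Macrophage markers summed to 150 and 132 FPKM, nearly all of it Emr1, megakaryocyte markers to 53.2 and 102 FPKM, led by Itga2b, which rose, and stromal markers to 6.81 and 13.3 FPKM, nearly all of it Pdgfrb, which rose. In bulk RNA, fewer cells of a type and less RNA per cell cannot be told apart, and the part of these markers in the results below was not tested. Read counts were not part of the table, and the sequencing depth is unknown.

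The series compares 4OHT with vehicle to find expression changes after loss of C/EBPα. Of the 136 members that the authors tested, 3 rose and none fell. Mllt3, a reader of acylated histone lysines, rose 1.69-fold, and Chd3 and Chd5, ATPases of the NuRD remodelling complex, rose 1.41-fold and 1.59-fold. A gene is called here, and said to have risen or fallen, when the authors' deposited table gives it the status of a completed test and a q under 0.05. By that rule 2.21% of tested members were higher, where 2.8% of all 11953 tested rows were, and none was lower, where 3.11% of all tested rows were. The share of members called higher is thus near the background. The other 9 members were not tested by the authors. Of all 145, 131 reached 1 FPKM in at least 1 condition and are called measured, while 14, of which 5 were tested, did not.

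Mllt3, also called AF9, binds acetylated and crotonylated lysines through its YEATS domain and brings DOT1L or the super elongation complex to chromatin. It is a frequent fusion partner of MLL in leukaemia. Its value was 5.91 FPKM with vehicle and 10.01 FPKM with 4OHT, a log2 ratio of 0.67 on the scale log2(FPKM + 1), which adds 1 to each value and understates the change of low genes. The authors' deposited table gave q = 0.00165, the smallest q in that table, which many rows share. The row lies on chromosome 4 of mm9, from 87415829 to 87679311. Focad, at 4.27 and 3.65 FPKM, was the only measured row within 100000 bases of it, and was not called.

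Chd3 and Chd5 encode alternative ATPases of NuRD, a complex that couples nucleosome remodelling to histone deacetylation. Chd3 had 7.57 FPKM with vehicle and 10.6 FPKM with 4OHT (chromosome 11 of mm9, 69156775 to 69182928), with q = 0.0499 by the authors' deposited table. That q stands just under the threshold, and the fold of 1.41 was the smallest called among all rows between 5 and 20 FPKM. Chd5 had 0.787 and 1.25 FPKM (chromosome 4, 151712760 to 151764303), with q = 0.0316 by the same table. It reached the 1 FPKM at which a gene counts as measured only after 4OHT, as did Smarcd3, so both entered the measured set through the condition where they were higher. Around Chd3, 7 measured rows within 100000 bases, among them the demethylase gene Kdm6b, held no call. Around Chd5, 4 measured rows, including Rpl22 and Kcnab2, held none either.

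Promoter sequence is shown for the risers Mllt3 and Chd5, from RefSeq (GRCm38.p6). No window was printed for Chd3, the other riser. Each window runs from 250 bases before a start site to 50 after it, on the gene's strand. Capitals mark the C/EBP pattern TTNNGNAA, searched on both strands. The upstream Mllt3 start lies in a CpG-rich window (chr4:88033358-88033657, minus strand) with no match.
Mllt3 upstream start: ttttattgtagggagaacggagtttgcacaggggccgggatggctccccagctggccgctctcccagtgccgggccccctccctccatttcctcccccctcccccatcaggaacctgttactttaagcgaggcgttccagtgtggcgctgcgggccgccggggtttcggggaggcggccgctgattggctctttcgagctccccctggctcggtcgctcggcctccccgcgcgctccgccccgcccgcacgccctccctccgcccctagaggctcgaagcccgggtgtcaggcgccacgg
The downstream Mllt3 start lies in a window with 4 CpG, against 29 in the upstream one (chr4:87806274-87806573, minus strand). It holds 1 match, on the opposite strand, 145 bases before the start.
Mllt3 downstream start: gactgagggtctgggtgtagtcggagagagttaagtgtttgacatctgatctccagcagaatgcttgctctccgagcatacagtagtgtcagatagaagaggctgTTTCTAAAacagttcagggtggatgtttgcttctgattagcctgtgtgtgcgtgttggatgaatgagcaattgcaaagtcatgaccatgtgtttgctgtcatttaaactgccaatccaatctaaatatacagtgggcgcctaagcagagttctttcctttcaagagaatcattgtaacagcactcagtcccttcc
The Chd5 window (chr4:152338401-152338700, plus strand) has 32 CpG and no match. A second start, 3 bases further, was listed with nearly the same window.
Chd5 start: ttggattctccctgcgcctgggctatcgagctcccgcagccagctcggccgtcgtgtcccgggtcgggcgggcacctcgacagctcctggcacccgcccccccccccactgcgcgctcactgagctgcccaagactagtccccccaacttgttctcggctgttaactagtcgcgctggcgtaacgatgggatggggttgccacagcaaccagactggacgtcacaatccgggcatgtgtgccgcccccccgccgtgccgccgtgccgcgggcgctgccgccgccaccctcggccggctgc
These letters say where the pattern occurs and nothing about binding, and the deposited rows do not separate the start sites of a gene.

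Across the members, 118 of 145 had at least 1 such window, 159 windows in all. The windows were rich in CpG, with a median of 24 against 7 over all 32851 windows in the table. The GC box GGGCGG was in 71.1% of the members' windows and 35.7% of all windows, and the ETS core CCGGAA in 23.9% and 14.9%. The C/EBP pattern was in 31.4% against 40.7%. CCAAT was in 37.1% and 37.4%, and the E-box CACGTG in 8.81% and 7.15%. Both strands were searched for each motif, and matches of different motifs may overlap. Windows that differ in CpG content differ in how often such letters occur, so these shares are a description only.

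Most members had a slightly higher value after 4OHT. Of 131 measured members, 100 had a higher value after 4OHT and 31 a lower one, where 50.1% of all 10989 measured rows had a higher value. Their median log2 ratio was 0.08, against 0.00031 over all measured rows. The same was seen at both middle ranges of level, where the level of a gene was taken as the higher of its 2 values. Between 5 and 20 FPKM, 71.7% of 60 members had a higher value against 52.5% of the other rows, and between 20 and 100 FPKM 83.9% of 56 against 46.0%. A level set by the higher value moves some genes into a range through the condition where they were higher. With the mean of both values as the level, a choice made after seeing the data, the shares were 72.3% of 65 members against 52.4% of the other rows, and 84.0% of 50 against 45.8%. Without replicate values the error of each ratio is unknown, and no test of this shift was made.

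The ratios of the members also lay close together. The interquartile range of the measured members was 0.13 on the log2 scale, from 0.0059 to 0.13, and that of all measured rows was 0.20. At like level, by the higher value, the difference was small between 5 and 20 FPKM, at 0.18 against 0.20 in the other rows. Between 20 and 100 FPKM it was 0.11 against 0.18. Of the members, 84.7% lay within 0.2 of no change, against 74.2% of all measured rows. Beyond 0.3 lay 9 members, or 6.87%, against 15.5%. The lowest ratio was -0.30, for Phf19, and the highest was that of Mllt3. Levels kept nearly the same order, with 9 of the 10 highest members shared by both conditions.

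**Figure D1:**
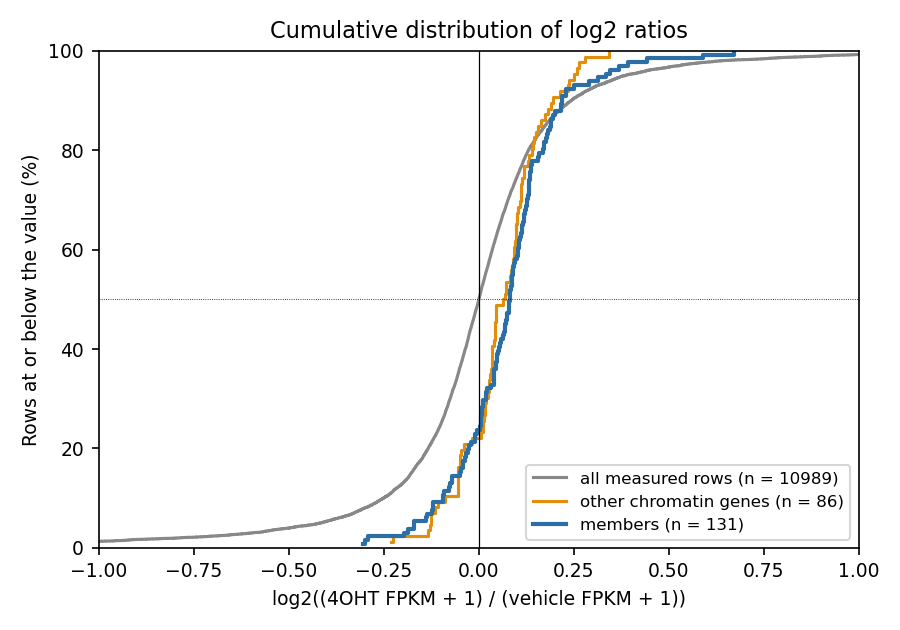
Cumulative share of rows (%) by log2 ratio of 4OHT to vehicle, with 1 added to each FPKM value, for the 131 measured members, 86 other measured chromatin genes and all 10989 measured rows, on an axis from -1 to 1 that leaves the outermost rows out. Both chromatin curves cross 50% to the right of 0, at 0.08 and 0.07, and rise more steeply than the curve of all rows.

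Changes of the size most members showed were not called in other rows of like level either. Among all tested rows between 5 and 20 FPKM, again by the higher value, and above 0 in both conditions, none of 3084 with a change under 1.2-fold was called. Of 136 rows between 1.5 and 2-fold, 82.4% were called. Of the 60 members at that level, 52 changed by less than 1.2-fold, as did 54 of the 56 members between 20 and 100 FPKM. A small change in those members was therefore not detectable by this rule, and the absence of a call does not show that they stayed at 1 level.

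**Figure D2:**
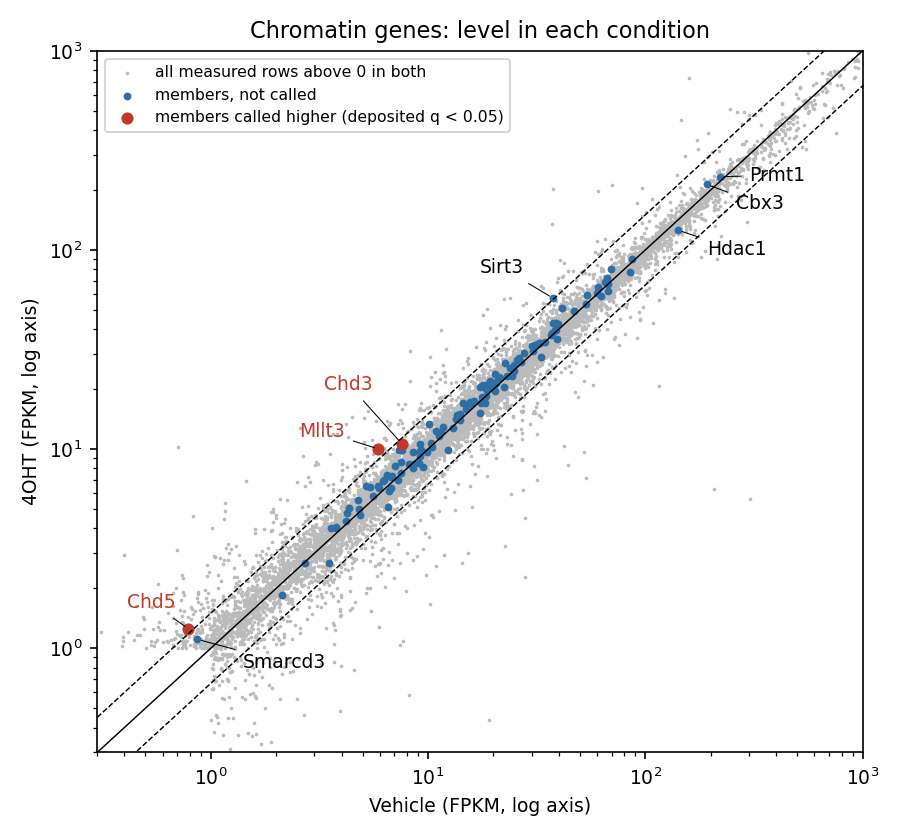
FPKM after 4OHT against FPKM in vehicle cells, both on log axes, for the measured members and for all measured rows above 0 in both conditions that fall within the axes. The solid line marks equal values and the dashed lines a 1.5-fold change. Members follow the solid line from Smarcd3 up to Prmt1, and Mllt3, Chd5 and Sirt3 are the members at or beyond a dashed line.

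The counts were also taken under looser and stricter rules. At an unadjusted p under 0.05, 8 members were higher, or 5.88%, where 6.2% of all tested rows were, and 1 was lower, or 0.735%, where 6.14% were. The 8 were Mllt3, Chd3, Chd5, Cbx2, Kdm5b, Phf15, Sirt3 and Smarcc1, and the 1 was Chd7. At q under 0.1 the count was 3 higher and none lower, beside 3.44% and 3.64% of all tested rows, and at q under 0.01 it was 1 higher, Mllt3, and none lower, beside 1.72% and 2.12%. Asking for at least 1.5-fold as well kept Mllt3 and Chd5, with 2.47% of all rows higher and 2.79% lower. Asking for at least 5 FPKM kept Mllt3 and Chd3, with 1.71% higher and 1.94% lower.

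**Figure D3:**
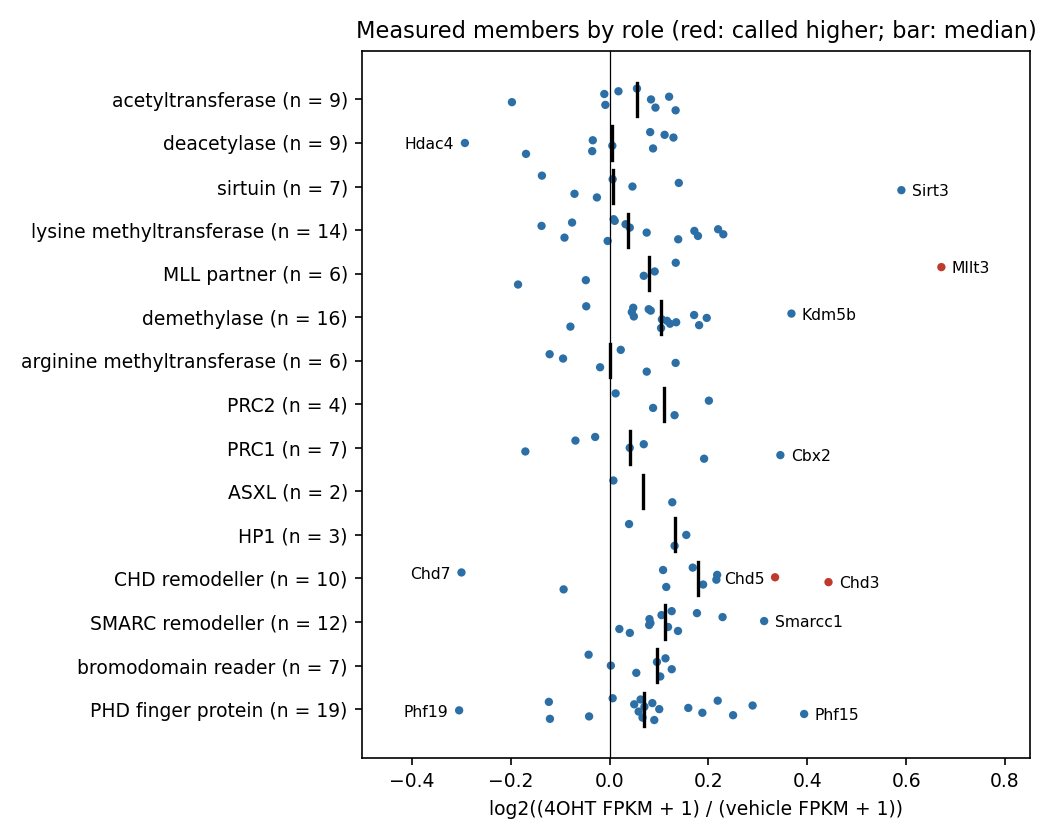
Log2 ratio of 4OHT to vehicle, with 1 added to each FPKM value, for each measured member by role. Points are single genes (red called higher, blue not called), the black bar is the median of the role, and genes beyond 0.29 in either direction are named. Every SMARC, PRC2 and HP1 point lies to the right of 0. The SMARC point of Smarcd3 and the CHD point of Chd5 are genes measured through 4OHT alone.

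Among the remodellers, all 12 measured SMARC members, SWI/SNF subunits and related proteins, had a higher value after 4OHT. Of all measured rows 50.1% did, of all measured members 76.3%, and of the other chromatin genes described below 77.9%. The median log2 ratio of the SMARC members was 0.11. None of them was called, where 2.8% of all tested rows were called higher and 3.11% lower. Smarcd3, at 0.867 and 1.11 FPKM, was measured through 4OHT alone, so the minimum itself set its direction. Smarcc1, the BAF155 core subunit, had 41.2 and 51.4 FPKM, with q = 0.3805 by the authors' deposited table. The alternative ATPases Smarca4 (BRG1) and Smarca2 (BRM) had 38.9 and 42.9 FPKM, and 10.4 and 10.7 FPKM. Smarce1 was the highest of the group at 66.4 and 72.6 FPKM, and the ISWI ATPase Smarca5 had 38.9 and 39.5 FPKM. Smarca1, its paralog, was listed at 0 in both conditions, and Smarca5-ps, a pseudogene whose reads may be shared with Smarca5, had 0.102 and 0.128 FPKM.

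Of 10 measured CHD remodellers, 2 rose, 8 had a higher value and the median log2 ratio was 0.18, beside 2.8% of all tested rows called higher and 50.1% of measured rows with a higher value. One of the risers, Chd5, was measured through 4OHT alone. Chd4, the most abundant NuRD ATPase here, had 69.1 FPKM with vehicle and 80.5 FPKM with 4OHT. It held 89.2% of the summed FPKM of Chd3, Chd4 and Chd5 in vehicle cells and 87.1% after 4OHT. Chd7, a remodeller that acts at enhancers, had a lower value, with 12.4 and 9.88 FPKM and q = 0.368 by the authors' deposited table. Chd1 was the other member with a lower value, at 18.2 and 17.0 FPKM.

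Polycomb genes held no call. PRC2 methylates lysine 27 of histone H3 through Ezh2 or Ezh1, with Eed and Suz12 as core subunits. Ezh2 had 37.5 and 43.2 FPKM, Ezh1 9.25 and 9.89, Eed 30.1 and 33.0, and Suz12 53.1 and 53.5. All 4 had a higher value after 4OHT, as did 76.3% of all measured members and 50.1% of all measured rows. Ezh2 made up 80.2% and 81.4% of the sum of both methyltransferase genes. Of the genes of PRC1, which adds ubiquitin to histone H2A, Bmi1 had 18.2 and 20.9 FPKM and Ring1 13.0 and 12.7 FPKM.

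The CBX subunits that tie PRC1 to methylated H3 are alternatives to one another. Cbx2 had 7.58 and 9.90 FPKM, with q = 0.291 by the authors' deposited table. Cbx8 had 6.77 and 6.40 FPKM and Cbx7, the form tied to stem cell self-renewal, 3.79 and 4.02 FPKM. The HP1 genes Cbx1, Cbx3 and Cbx5, which bind methylated lysine 9 of H3, had higher values, with Cbx3 at 191 and 213 FPKM. Asxl1, a partner of the H2A deubiquitinase Bap1, had 19.3 and 21.1 FPKM, Asxl2 had 9.18 and 9.23 FPKM, and Asxl3 was below 1 FPKM.

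Among the MLL partners, only Mllt3 was called. Its paralog Mllt1 (ENL), the other YEATS reader of the same complexes, had 18.1 and 17.5 FPKM. The share of Mllt3 in their sum went from 24.6% to 36.4%, by 11.8 percentage points, while no share in the other 16 sets of paralogs compared moved by more than 4.01 points. Dot1l, the H3 lysine 79 methyltransferase that both recruit, had 18.5 FPKM in each condition. Men1, the gene of menin, which tethers MLL1 to Hoxa9 and Meis1, had 33.1 and 29.0 FPKM. Mll1 had 6.26 and 6.996 FPKM. Mllt6, Mllt10 and Mllt11 had log2 ratios from 0.07 to 0.13, and Mllt4 was below 1 FPKM.

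**Figure D4:**
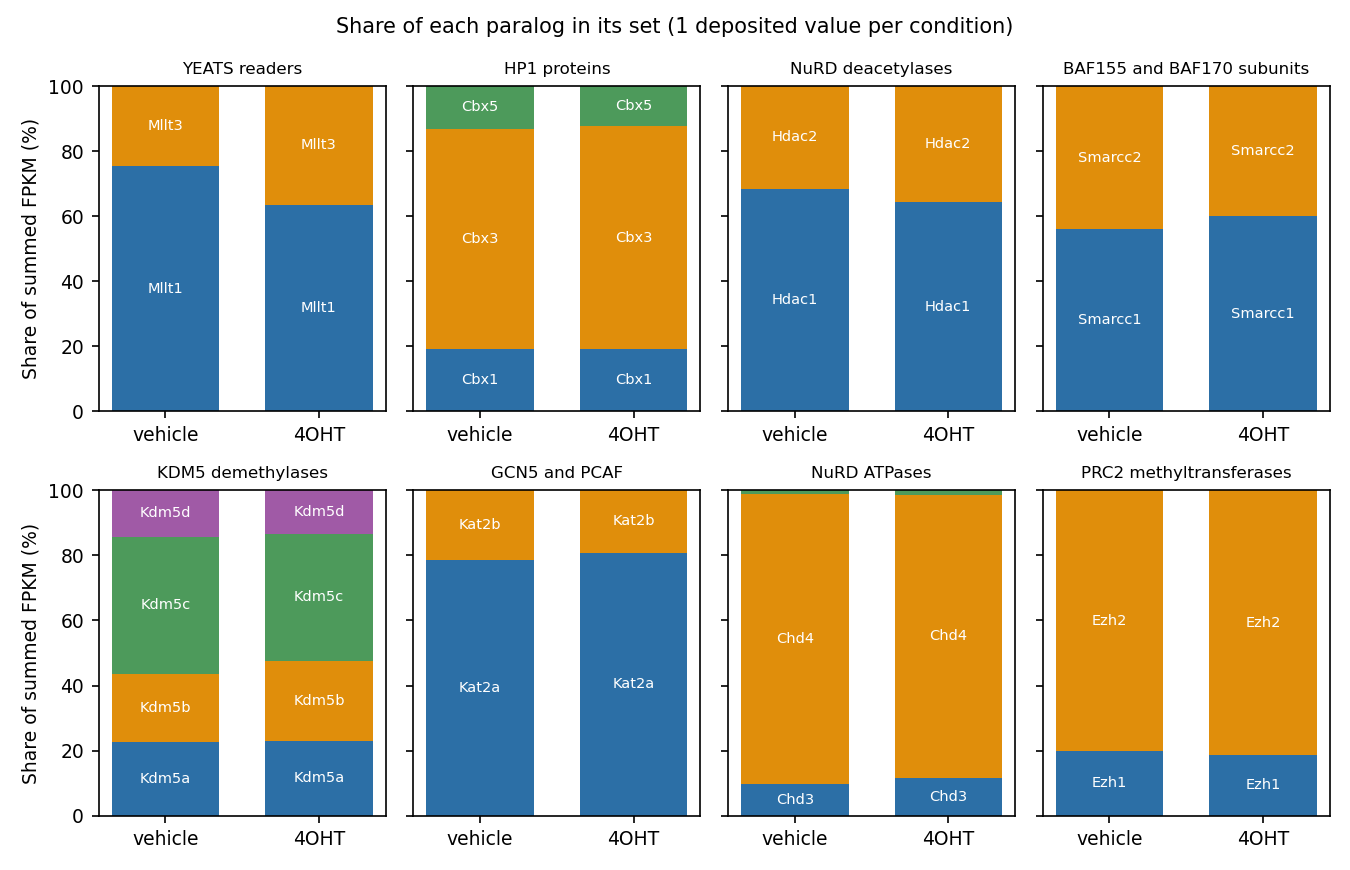
Share (%) of each paralog in the summed FPKM of its set, in vehicle cells and after 4OHT, for 8 of the 17 sets compared, with 1 deposited value per condition and no error bars. The share of Mllt3 goes from 24.6% to 36.4%, and in the other sets drawn no share moves by more than 4.01 points. The thin unlabelled layer among the NuRD ATPases is Chd5.

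The role of lysine methyltransferases was listed by symbol, not by activity, and includes the actin-modifying Setd3. Its 14 measured genes had a median log2 ratio of 0.04. None was called, where 2.8% of all tested rows were called higher and 3.11% lower. Setd8, which methylates lysine 20 of H4, led in level with 60.2 and 60.5 FPKM. Setd2, the H3 lysine 36 trimethylase, had 18.0 and 21.1 FPKM, and Mll5 had 17.3 and 20.4 FPKM, the largest ratio of the group at 0.23. Setd1a and Setd1b, the catalytic subunits of SET1 complexes, had 21.4 and 22.6 FPKM, and 7.54 and 8.62 FPKM. Mll2 (Kmt2d by its chromosome) and Mll3, which methylate lysine 4 of H3 at enhancers, had 6.63 and 6.16 FPKM, and 4.35 and 5.05 FPKM.

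Of 16 measured lysine demethylases, 14 had a higher value after 4OHT, and none was called. Of all measured members 76.3% had a higher value, and of all measured rows 50.1%. Among all tested rows, 2.8% were called higher and 3.11% lower. Kdm5b, which removes methyl groups from lysine 4 of H3, had 10.1 and 13.3 FPKM, with q = 0.177 by the authors' deposited table. Its share among the KDM5 paralogs was 21.0% and 24.7%. Kdm1a (LSD1), a drug target in leukaemia, was the highest at 39.2 and 42.2 FPKM, and Kdm2b, which brings a form of PRC1 to CpG islands, had 25.8 and 28.2 FPKM. Kdm6a, which erases the PRC2 mark, had 11.5 and 12.2 FPKM. The Y-linked Kdm5d had 6.85 and 7.31 FPKM. Kdm4d was below 1 FPKM, at 0.0123 FPKM in vehicle cells and listed at 0 after 4OHT.

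Histone acetyltransferases ranged from -0.20 to 0.13 in log2 ratio, with a median of 0.06 over 9 genes. Kat2a (GCN5) had 34.6 and 34.4 FPKM and its paralog Kat2b (PCAF) 9.52 and 8.17 FPKM. Ep300 and Crebbp, the coactivators that many myeloid transcription factors use, had 14.1 and 15.1 FPKM, and 3.56 and 4.00 FPKM. The deacetylases, which remove those marks, had a median of 0.0056. Hdac1 had 141 FPKM with vehicle and 126 FPKM with 4OHT, and its partner Hdac2 65.2 and 69.4 FPKM, a share of Hdac1 of 68.4% and 64.4%. Hdac3, the enzyme of the NCoR complexes, had 67.2 and 67.4 FPKM. Hdac4 had the largest ratio of the group at -0.29, from values of 3.49 and 2.67 FPKM with q = 0.473 by the authors' deposited table. Hdac9 and Hdac11 were below 1 FPKM.

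Among the sirtuins, NAD-dependent deacylases, Sirt3 had the second largest log2 ratio of all members, 0.59, and was not called. Its value was 37.7 FPKM with vehicle and 57.2 FPKM with 4OHT, a 1.52-fold difference. The authors' deposited table gave p = 0.0479 and q = 0.394. At 20 to 100 FPKM, 133 of 157 tested rows with at least a 1.5-fold change were called, and Sirt3 was 1 of the 24 that were not. Its row has the same locus as Ric8, chromosome 7 of mm9 from 148043296 to 148068208, so the genes overlap in the table. Ric8 had 42.8 and 48.4 FPKM, and how the authors split fragments between them was not stated. Sirt1, the nuclear founder of the family, had 10.5 and 10.3 FPKM, and Sirt7, the highest in vehicle cells, 39.3 and 35.7 FPKM.

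Arginine methyltransferases had a median log2 ratio of 0.0017 over 6 measured genes. Prmt1, the main source of asymmetric dimethylarginine, was the most abundant of all 145 members at 221 and 233 FPKM. Prmt5, which makes the symmetric form, had 62.6 and 58.6 FPKM, and Prmt3, which acts on a ribosomal protein, 27.7 and 30.5 FPKM. Prmt2 was below 1 FPKM and Prmt8 was listed at 0.

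The bromodomain readers of acetylated histones included Brd2 and Brd3, genes of the BET family. Brd2 was the highest with 86.6 and 89.9 FPKM, and Brd3 had 26.2 and 28.6 FPKM. The 7 ratios of the role ran from -0.04 to 0.13. PHD finger proteins, a mixed group of readers and scaffolds, gave 19 measured genes of 24 and a median of 0.07. Phf15 (Jade2), a scaffold of the Kat7 acetyltransferase complex, had 7.34 and 9.95 FPKM, with q = 0.118 by the authors' deposited table, the smallest q of any member not called. Phf10, a subunit of a SWI/SNF form, was the highest at 84.7 and 77.8 FPKM, and Phf6, mutated in T cell and myeloid leukaemias, had 14.5 and 17.0 FPKM. Phf19, which links PRC2 to chromatin, had 6.53 and 5.10 FPKM with q = 0.454 by the same table. Phf21b and the 4 clustered Phf11 genes were below 1 FPKM, and reads of those near neighbours may be hard to assign where they share sequence.

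Further genes of the same complexes were looked at too. A list of 93 chromatin gene symbols that the symbol rule does not match was used. It included the Mta and Mbd subunits of NuRD, Arid subunits of SWI/SNF, Pcgf and Phc subunits of PRC1 and the Sin3 and Ncor corepressors. Among them, Myst1, Myst2, Myst3, Myst4 and Utx had no row, as they are older symbols of members that stand under Kat and Kdm names. The other 88 matched a row by symbol. Of the 87 tested, none rose and none fell by the authors' deposited q, and at an unadjusted p under 0.05, 1 was higher and none lower. Over all tested rows the shares were 2.8% higher and 3.11% lower by q, and 6.2% and 6.14% by unadjusted p. The 1 was Arid1b, a DNA-binding subunit of SWI/SNF, at 8.09 and 10.5 FPKM. Of the 86 measured, 67, or 77.9%, had a higher value, against 50.1% of all measured rows, and the median log2 ratio was 0.07. Mtf2, a PRC2 partner, had 31.2 and 37.6 FPKM, and Dpy30, a core subunit shared by MLL complexes, 159 and 136 FPKM. Aff1, Aff4 and Ell, which join Mllt1 or Mllt3 in the super elongation complex, had ratios of 0.03, -0.11 and 0.09.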

How the data were processed

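Libraries were Illumina TruSeq RNA, from DNase-treated RNA, per the labels' protocols. No source used here states the strand, so overlapping and antisense genes cannot be told apart. Build mm9 and the tools Cuffdiff 2.0.2, Bowtie2 2.0.0.7 and CASAVA 1.8.2 stand in the submitters' processing notes, which give them no roles. The authors deposited 1 FPKM value per gene and condition, per the file headers, with a status, a p-value and a q-value. Deposited q-values equal a Benjamini-Hochberg adjustment over the 11953 tested rows to within 5.28e-07, and p-values are whole multiples of 5e-05. The test behind them, and whether the named Cuffdiff release made them, was not stated, and every call rests on them.

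With 1 sample per group, no test was run here across genes, and calls are the authors' own. Log2 ratios used a pseudocount of 1. Measured genes had at least 1 FPKM in either condition. Mllt and Mll rows were taken as deposited, and starts were written from 1. Genes to name were every called member, those with q under 0.25, the highest and most changed of each role, a list of 30 leukaemia-related members and those below the minimum. Other genes given with values were added after values were seen. RefSeq promoter windows were matched to 135 members by symbol and 10 by an older symbol. The members and lists were chosen with earlier results of these data known. A few listed genes are not reported here. Counting was tested on simulated data. Computations used Python 3.11.15, pandas 2.3.3, numpy 2.4.6 and matplotlib 3.10.9.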

Additional observations from a re-analysis of the deposited data

How the results depend on the processing

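The 3 members called higher became 1 at q under 0.01 and 8 at an unadjusted p under 0.05, and stayed between 2 and 3 under the other 4 alternatives (q under 0.1, at least 1.5-fold, at least 5 FPKM, and without the Mllt rows). The count of members called lower was 0 and became 1, Chd7, at an unadjusted p under 0.05, with 0 under the other 5 alternatives. The median log2 ratio of measured members was 0.08, and lay between 0.079 and 0.087 with a pseudocount of 0.1, a minimum of 5 FPKM, no minimum, centring on all measured rows and without the Mllt rows. None of the 49 named measured members changed sign with the other pseudocount or the centring. The log2 ratio of Chd5, a low gene, went from 0.33 to 0.61 with a pseudocount of 0.1, the only one of them to move by over 1.5 times. With 1 deposited value per condition no replicate could be left out, and depth is unknown. No paired analysis was possible because each sample joins its replicates into 1 value.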

Other observations

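Ifitm1, an interferon-induced membrane protein gene, rose from 1537 to 2327 FPKM, with q = 0.00911 by the authors' deposited table. It lies on chromosome 7 of mm9, 85119 bases from the locus that Sirt3 shares with Ric8, and was the only called row among the measured rows within 100000 bases of that locus. Its neighbour Ifitm2 had 426 and 481 FPKM and was not called. Psmd13, 84 bases from the locus, had 89.8 and 93.8 FPKM, and Bet1l, on the other side, 26.53 and 26.03 FPKM, neither called. These rows were chosen after their values were seen.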
